A study of Homo sapiens with 11 samples.

Results

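Poly(A) RNA of PANC-1 cells given small interfering RNA (siRNA) against MYEOV was compared with that of PANC-1 controls, 3 libraries each. These are 6 of the 11 libraries of the study. The other 5 come from AsPC-1, another pancreatic cancer line, and enter here in a test of how the lines differ and in 1 alternative fit over all groups. Levels are given as CPM, a count scaled to its library size, with TMM factors for the values printed. Genes were kept when they reached an unadjusted CPM of 1 in at least 3 of the 6 libraries. That left 14243 of the 58735 gene identifiers listed, of which 30379 had any count in these libraries. RNA of the siRNA cells was taken 48 hours after a lipid transfection. The submitters' title speaks of knocking out MYEOV, whereas the protocol describes siRNA, which lowers an mRNA without changing the gene. The control libraries are titled WT and described as untreated, their files are marked nc, and the protocol lists a negative-control siRNA. The control treatment is therefore not settled, and MYEOV siRNA and transfection cannot be told apart if the controls were untreated. A pair of siRNAs is listed, siMYEOV-1 and siMYEOV-2, and the labels do not say which of them a given library received. Nor is it stated whether replicates were grown separately, and the p-values therefore reflect spread among 6 libraries that may be only technical.

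PANC-1 is an established line from a ductal carcinoma of the human pancreas. MYEOV was first described as a gene overexpressed in myeloma, and it lies beside CCND1 in a segment of chromosome 11 that is amplified in several carcinomas. An siRNA acts through its guide strand, which an Argonaute protein holds and which directs cleavage of an mRNA that pairs with the whole guide. A few bases near the start of a guide, its seed, can also pair with the 3' untranslated regions (3' UTRs) of other mRNAs, as in microRNA targeting.

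The 7-base word CTCATGT recurred in the 3' UTRs of the genes that fell most, and windows around it are printed here because later paragraphs group genes by it. The word came from an earlier look at these same data, so it is described and not tested. Each window is the mRNA sense strand of the longest annotated 3' UTR (GENCODE 29, GRCh38), 5' to 3', with the word in capitals. The 8 genes shown are among the 15 largest falls described below, and for DIXDC1, which has 2 copies, the second is shown.
EMP1: gacatttatgtCTCATGTaatttgcatta
NPC2: tcagtggttgtCTCATGTctctttttctg
PRUNE1: aaggactcagcCTCATGTagcacgaatag
ALYREF: ggatttaaaaaCTCATGTaaaggtttttt
DIXDC1: agctcggtaatCTCATGTaccacaggtaa
BZW2: ttgtgtatctgCTCATGTatgtgatttga
FAM107B: tctgattaatgCTCATGTatttctttatc
POLE3: gctaattttgtCTCATGTcttctaaaaat
Over all 16 copies in the 13 of those 15 genes that carry the word, the next base is an A in 9; in the 8 windows shown it is an A in 6. EMP1 has the word at base 1935 of its 3' UTR, ALYREF at base 133 and BZW2 at base 1014, so the word did not hold a fixed place. The siRNA sequences were not used here, so whether the word pairs with either siRNA was not tested.

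MYEOV mRNA was lower in every siRNA library. MYEOV (ENSG00000172927, chromosome 11, 69294138 to 69367726 on the plus strand of GRCh38) stood at 81.3, 74.8 and 69.9 CPM in the controls and at 40.8, 38.9 and 43.1 CPM in the siRNA libraries. The groups did not overlap, as in 4159 (29.2%) of the 14243 genes tested, and the siRNA mean was 54.4% of the control mean. The log2 fold change was -0.88 ± 0.07 (SE, n = 3 and 3), with an adjusted p of 5.06e-06 in edgeR's quasi-likelihood test. MYEOV was the only one of 14 tested genes of its neighbourhood, CCND1 among them, that passed the test. The annotated 3' UTR of MYEOV holds neither the 7-base word nor its last 6 bases.

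Total counts ran from 12113093 to 15066456 per library, and from 23215 to 24025 genes had a count. Mitochondrial transcripts took from 6.21% to 6.82% of counts. The biological coefficient of variation was 6.10%, and every pair of replicates differed by more than sampling noise. Control library 2 stood furthest from its group, with 185 of 10298 genes more than 0.5 from the other controls on the log2 scale, against 17 to 83 in the other libraries. Leaving it out raised the count of changed genes given below to 1706.

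The response was broad and shallow. Of 14243 genes, 1362 (9.56%) passed an adjusted p of 0.05: 613 (4.30%) were higher and 749 (5.26%) lower. The median absolute log2 fold change of the called genes was 0.33, and the median over all genes was -0.003. Falls reached further than rises. Of the 36 called genes (0.253%) that changed more than 2-fold, 27 fell and 9 rose. The 484 genes (3.40%) called in all 6 fits that leave out 1 library held 318 falls (2.23%) and 166 rises (1.17%). The counts rest in part on single libraries. Without siRNA library 1 there were 542 calls (192 higher, 350 lower), without siRNA library 2 there were 872 (395 and 477), and without siRNA library 3 there were 857 (363 and 494). Without control library 1 the higher genes numbered 406. Protein-coding genes gave 591 rises and 704 falls among 12261 tested, and long non-coding RNAs 13 and 25 among 1177. Calls became more frequent with level, from 1.33% of genes below a mean log2 CPM of 2 to 16.8% of those above 6. In simulated counts for the 14243 genes, changes were placed only in genes above a mean log2 CPM of 3. Among these the test found 46.3% of changes of 0.3 and 100% of changes of 0.6 (log2). The simulation changed 200 genes, against 1362 called in the data, with a spread set by level alone. Its shares therefore do not measure how many shifts near 0.3 were missed here, and recovery at lower levels was not measured.

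**Figure D1:**
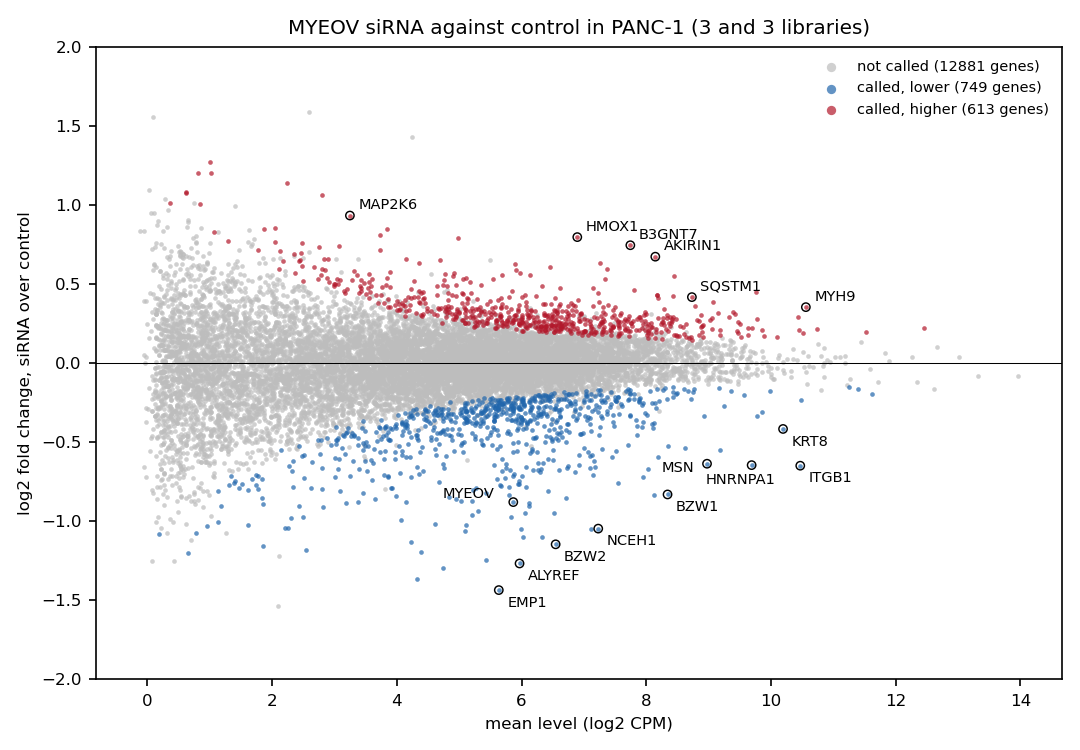
Log2 fold change (siRNA over control, vertical) against mean level (log2 CPM, horizontal) of the 14243 genes tested in PANC-1, 1 point a gene, red for the 613 called higher and blue for the 749 called lower; 1 gene lies beyond the vertical axis. Named genes such as EMP1, ALYREF and BZW2 lie further below 0 than HMOX1, B3GNT7 and AKIRIN1 lie above it.

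The largest falls included several genes of membranes and endosomes. EMP1, a small membrane protein of the PMP22 family, went from 68.7, 78.8 and 69.2 CPM in the controls to 26.0, 27.0 and 27.0 CPM in the siRNA libraries. Its siRNA mean was 36.9% of control, the log2 fold change was -1.44 ± 0.07 (SE, n = 3 and 3) and the adjusted p was 1.85e-07. This was the deepest fall named, and no siRNA library came near a control. NPC2, the lysosomal carrier that hands cholesterol to NPC1, had 28.9, 25.9 and 30.3 CPM in controls and 10.6, 11.2 and 11.2 CPM after siRNA (log2 fold change -1.37 ± 0.09). TMEM30A, the partner subunit of phospholipid flippases, fell from 176, 213 and 173 to 85.4, 77.9 and 109 CPM, with siRNA library 3 highest. NCEH1, a hydrolase that acts on cholesterol esters, fell from 198, 224 and 183 to 94.9, 96.0 and 102 CPM. ZFYVE21, an endosomal protein with a FYVE domain, fell by 1.13 on the log2 scale, and FAM107B, a sequence relative of an actin regulator, fell by 1.10.

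Other large falls lay in RNA, DNA and signalling factors. ALYREF, the adaptor that brings the export receptor to spliced mRNA, went from 87.6, 87.8 and 88.6 CPM to 34.6, 35.9 and 39.2 CPM, which is 41.6% of control (log2 fold change -1.27 ± 0.06, adjusted p 1.85e-07). BZW2, an eIF5-mimic protein of translation initiation, had 123, 129 and 133 CPM in controls and 59.7, 56.1 and 58.1 CPM after siRNA. Both groups were tight, and the log2 fold change was -1.15 ± 0.06. PRUNE1, a phosphatase with exopolyphosphatase activity, fell from 37.8, 36.7 and 38.7 to 15.2, 16.2 and 14.7 CPM. CIAO2A, a member of the cytosolic iron-sulfur assembly machinery, fell from 63.9, 59.3 and 58.1 to 22.3, 25.4 and 29 CPM. DIXDC1, a positive Wnt regulator with a DIX domain, fell from 27.8, 28.0 and 30.5 to 12.3, 11.8 and 13.6 CPM. POLE3, a small histone-fold subunit of DNA polymerase epsilon, fell from 84.5, 84.2 and 86.6 to 40.2, 41.5 and 41.5 CPM. BRI3BP, TMTC3 and ISOC1 complete the 15 largest falls, at -1.10, -1.06 and -1.02. All 15 kept their call without each library in turn, as the rule that chose them required. CIAO2A and ISOC1 are the pair among them whose 3' UTR lacks the 7-base word.

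The 15 largest rises were taken, as the falls were, from genes called in all 6 fits without 1 library, without overlap between groups and at a mean log2 CPM of at least 3. They were smaller than the falls and spread over many functions. MAP2K6, the kinase directly above p38, had the largest rise of these, from 5.08, 6.41 and 7.82 CPM in controls to 11.4, 13.3 and 12.3 CPM after siRNA (log2 fold change 0.93 ± 0.15, adjusted p 0.0014). Its level was low in both groups, and the lowest siRNA library lay above the highest control, as the rule required. HMOX1, the haem-degrading enzyme that NRF2 induces, rose from 85.9, 81.5 and 92.8 to 149, 156 and 147 CPM (log2 fold change 0.80 ± 0.06, adjusted p 2.72e-06). ESPN, an actin-bundling protein, rose from 9.39, 8.01 and 11 to 17.9, 15.4 and 16.5 CPM. CCDC9B, a coiled-coil protein, rose from 24.4, 22.7 and 21.7 to 41.9, 39.3 and 37.7 CPM. B3GNT7, a glycan-extending transferase, had 162, 146 and 172 CPM in controls and 259, 272 and 275 CPM after siRNA. AKIRIN1, a small nuclear protein, rose from 201, 223 and 230 to 353, 332 and 358 CPM. EIF4EBP2, a repressor of cap-dependent translation that mTOR inactivates, rose from 113, 124 and 123 to 188, 189 and 180 CPM. LPAR3, a receptor for lysophosphatidic acid, rose by 0.63 on the log2 scale, RBMS1, an RNA-binding protein, by 0.61, and PINK1, the mitochondrial damage kinase, by 0.57. CPEB1, TMC7, TMEM87B, TMEM245 and FAM222B complete the 15, between 0.59 and 0.71. TMEM245 alone among the 15 carries the word.

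**Figure D2:**
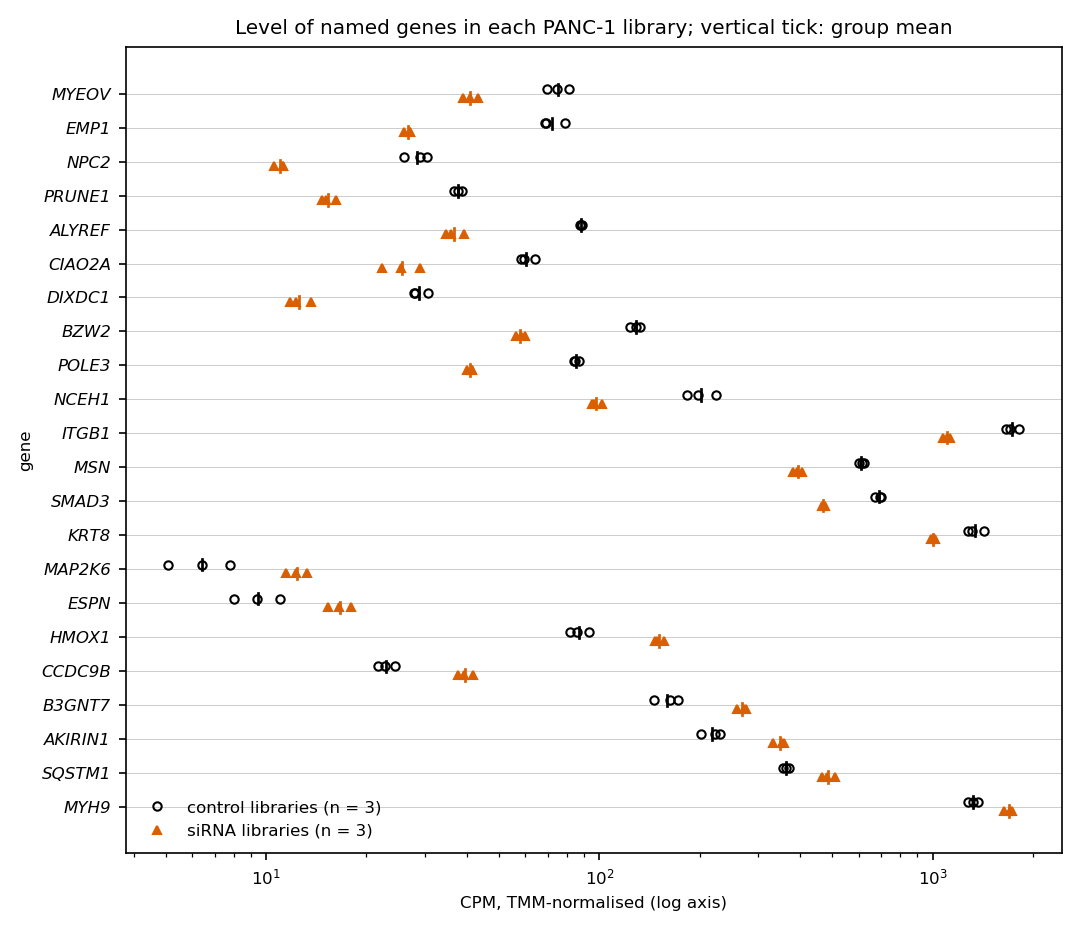
CPM on a log axis of 22 named genes (vertical) in each PANC-1 library, open circles for 3 controls, triangles for 3 siRNA libraries, and a tick at each group mean. In the genes drawn the libraries of each group cluster and the groups do not overlap. The largest rises and falls were chosen for this lack of overlap, which 4159 (29.2%) of the 14243 genes tested shared.

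Gene programmes are described by counts of called members and by the median log2 fold change of tested members, to be read against the 4.30% higher and 5.26% lower over all genes and their median of -0.003. Across 63 lists, 1608 genes were tested, and 117 rose and 153 fell. A list with many genes of high level will show more calls, since calls grew with level. Where a count of calls held in all 6 fits without 1 library is given, it shows how much of the list's count depends on single libraries.

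Replication genes that passed the test were all lower. Of 25 tested genes of origin licensing and firing, 10 fell and 0 rose (0 higher also at an unadjusted p under 0.05 and in DESeq2), with a median log2 fold change of -0.20, and 23 of the 25 were below 0. ORC1, the large subunit of the origin recognition complex, fell most, from 38.5, 36.6 and 34.8 to 18.9, 20.8 and 21.4 CPM (log2 fold change -0.85 ± 0.08, adjusted p 1.98e-05). GINS2, part of the replicative helicase, fell from 22.2, 21.5 and 20.6 to 16.6, 16 and 13.9 CPM. These were the 2 whose calls held without each library. Falls in the MCM helicase ring were small. MCM5 fell from 200, 174 and 189 to 151, 162 and 152 CPM and MCM6 from 150, 152 and 147 to 125, 131 and 126 CPM, and both lost the call without siRNA library 1 (adjusted p 0.0755 and 0.0783). MCM3, MCM4 and MCM7 passed the test at -0.20, -0.22 and -0.18, and each lost the call in 3 or more of the fits without 1 library. MCM2 was at -0.15 and did not pass (adjusted p 0.138). CDC6, which loads the ring, fell by 0.22 and lost the call in 4 of the 6 such fits. Only 1 gene of this list, ORC1, carries the 7-base word, and the 24 others had 9 falls and a median of -0.19.

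At the replication fork and in deoxynucleotide supply, 8 of 30 genes fell and 0 rose (2 higher at an unadjusted p under 0.05, 0 in DESeq2), with a median of -0.16. POLA1, the catalytic subunit of the primase-polymerase complex, fell from 50.9, 54.5 and 48.8 to 26.9, 25.5 and 28.2 CPM, to 52.3% of control. UNG, the uracil glycosylase, fell by 0.29, from 110, 108 and 110 to 88.9, 92.4 and 87.5 CPM. CHAF1A, a histone chaperone of new DNA, also fell by 0.29. The 2 carriers of the word in this list both fell, with a median of -0.57 against -0.14 in the other 28. In homologous recombination and the Fanconi pathway 5 of 25 fell and 0 rose (0 also at an unadjusted p under 0.05 and in DESeq2). FANCE fell from 17.8, 16.4 and 13.7 to 8.91, 8.75 and 8.67 CPM, and UBE2T and FANCD2, which are the conjugating enzyme and the substrate of the same ubiquitin step, fell by 0.38 and 0.34. FANCE carries the word, and UBE2T and FANCD2 do not.

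Cell cycle control and mitosis had more falls than rises. Among 30 genes of E2F, cyclin and CDK control 8 fell and 1 rose, with a median of -0.12. CDKN1A, the CDK inhibitor p21, fell from 48.0, 48.0 and 54.7 to 34.5, 35.6 and 38.7 CPM, and E2F2 fell by 0.42. CDK2 fell by 0.23 and CDK6 by 0.34, calls that were lost in 3 and 2 of the fits without 1 library. The 7 carriers of the word in this list had 4 of its 8 falls and a median of -0.31, against -0.01 in the other 23. Among 30 mitotic kinases, kinesins and cytokinesis genes 8 fell and 1 rose. The 5 carriers of the word had 4 of these falls and a median of -0.34, against -0.09 in the other 25. CDCA8, the borealin subunit of the chromosomal passenger complex, fell from 145, 136 and 125 to 75.0, 77.7 and 71.9 CPM. KIF11, KIF20A and KIF23, motors of the spindle and midzone, fell by 0.40, 0.34 and 0.33. ANLN, the anillin scaffold of the cleavage furrow, went the other way, from 561, 647 and 582 to 760, 745 and 732 CPM. Of 27 kinetochore and checkpoint genes 3 fell, led by MAD2L1, the checkpoint protein MAD2, which went from 93.8, 103 and 83.1 to 58.7, 53.5 and 68.4 CPM. CENPA, the centromeric histone, fell by 0.38. The 4 carriers of the word in the kinetochore list had 2 of its 3 falls. Of 20 cohesin and condensin genes 1 fell.

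Among 24 p53 target genes 2 rose and 1 fell. SESN2, a stress sensor upstream of mTORC1, rose from 40.8, 35.1 and 39.97 to 51.1, 50.8 and 50.5 CPM, and GDF15, a secreted stress cytokine, rose by 0.36, while CDKN1A fell. Of 26 apoptosis genes 2 rose and 2 fell. APAF1, the scaffold of the apoptosome, fell from 38.6, 40.5 and 39.97 to 19.5, 23.0 and 23.2 CPM (log2 fold change -0.86 ± 0.08). CYCS, the cytochrome c that APAF1 binds, fell by 0.33, and its call was lost without siRNA library 1 and without siRNA library 2 (adjusted p 0.0864 and 0.0553).

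The cell surface and its links to actin changed gene by gene. Integrin subunits had 1 rise and 2 falls among 16. ITGB1, the beta chain shared by many matrix receptors, fell from 1664, 1822 and 1707 to 1073, 1107 and 1131 CPM (log2 fold change -0.65 ± 0.04, adjusted p 1.37e-06). ITGA5, the fibronectin receptor chain that pairs with it, rose from 296, 272 and 293 to 336, 348 and 332 CPM. In focal adhesions 4 of 28 rose and 3 fell. FERMT2, the kindlin that activates integrins, fell by 0.65 and the adaptor CRKL by 0.44, while vinculin (VCL) rose by 0.25. MSN, which encodes moesin, a linker of membrane proteins to actin, fell from 612, 602 and 621 to 381, 407 and 392 CPM. Its relative RDX rose by 0.25, a call lost in 4 of the 6 fits without 1 library, and EZR stood at 476, 487 and 461 CPM in controls and 498, 508 and 480 CPM after siRNA, which did not pass (adjusted p 0.439). With EMP1, MSN and RDX were the called genes of a list of 15 linkers between membrane and actin. Of the 3 integrin carriers of the word 1 fell, of the 6 focal adhesion carriers 1 rose and 2 fell, and of the 3 linker carriers 2 fell.

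Of 40 actin genes 7 rose and 3 fell, with a median of 0.04. MYL9, the regulatory light chain of non-muscle myosin, rose from 43.8, 40.8 and 40.4 to 64.2, 63.2 and 56.5 CPM. MYH9, a heavy chain of the same motor, rose from 1370, 1277 and 1327 to 1705, 1735 and 1637 CPM, whereas the related heavy chain MYH10 fell from 110, 108 and 110 to 85.4, 90.3 and 84.2 CPM. The cofilin phosphatase SSH1 rose by 0.29. PAK2, a kinase that acts on the actin skeleton, fell from 358, 417 and 383 to 270, 266 and 267 CPM.

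Keratins and intermediate filament genes had 5 rises and 3 falls among 20. KRT8 fell from 1429, 1277 and 1309 to 989, 1017 and 1001 CPM, and its partner KRT18 fell from 581, 528 and 524 to 428, 433 and 432 CPM. These form the simple epithelial keratin pair, and neither carries the word. The cytolinker PLEC rose by 0.29 and the desmosomal linker PPL fell by 0.55. Of 18 cadherin, catenin and desmosome genes 4 rose and 0 fell (1 lower at an unadjusted p under 0.05, 0 in DESeq2), but none of these calls held in all 6 fits without 1 library. CDH1, the epithelial cadherin, was at 8.12, 8.57 and 9.74 CPM in controls and 12, 13.2 and 10.7 CPM after siRNA, and lost the call in 4 of those fits. In tight junctions and polarity 3 of 26 rose and 2 fell, OCLN by 0.33 and the atypical kinase PRKCI by 0.78. Among 18 mesenchymal genes 2 rose and 0 fell (1 lower at an unadjusted p under 0.05, 0 in DESeq2). Of 21 matrix protease genes 3 rose and 2 fell. PLAU, the urokinase that activates plasminogen, rose by 0.29 and lost the call in 2 of the 6 fits, TIMP2 rose by 0.35, and SERPINE2 fell by 0.77 at under 4 CPM and lost the call in each of the 6.

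**Figure D3:**
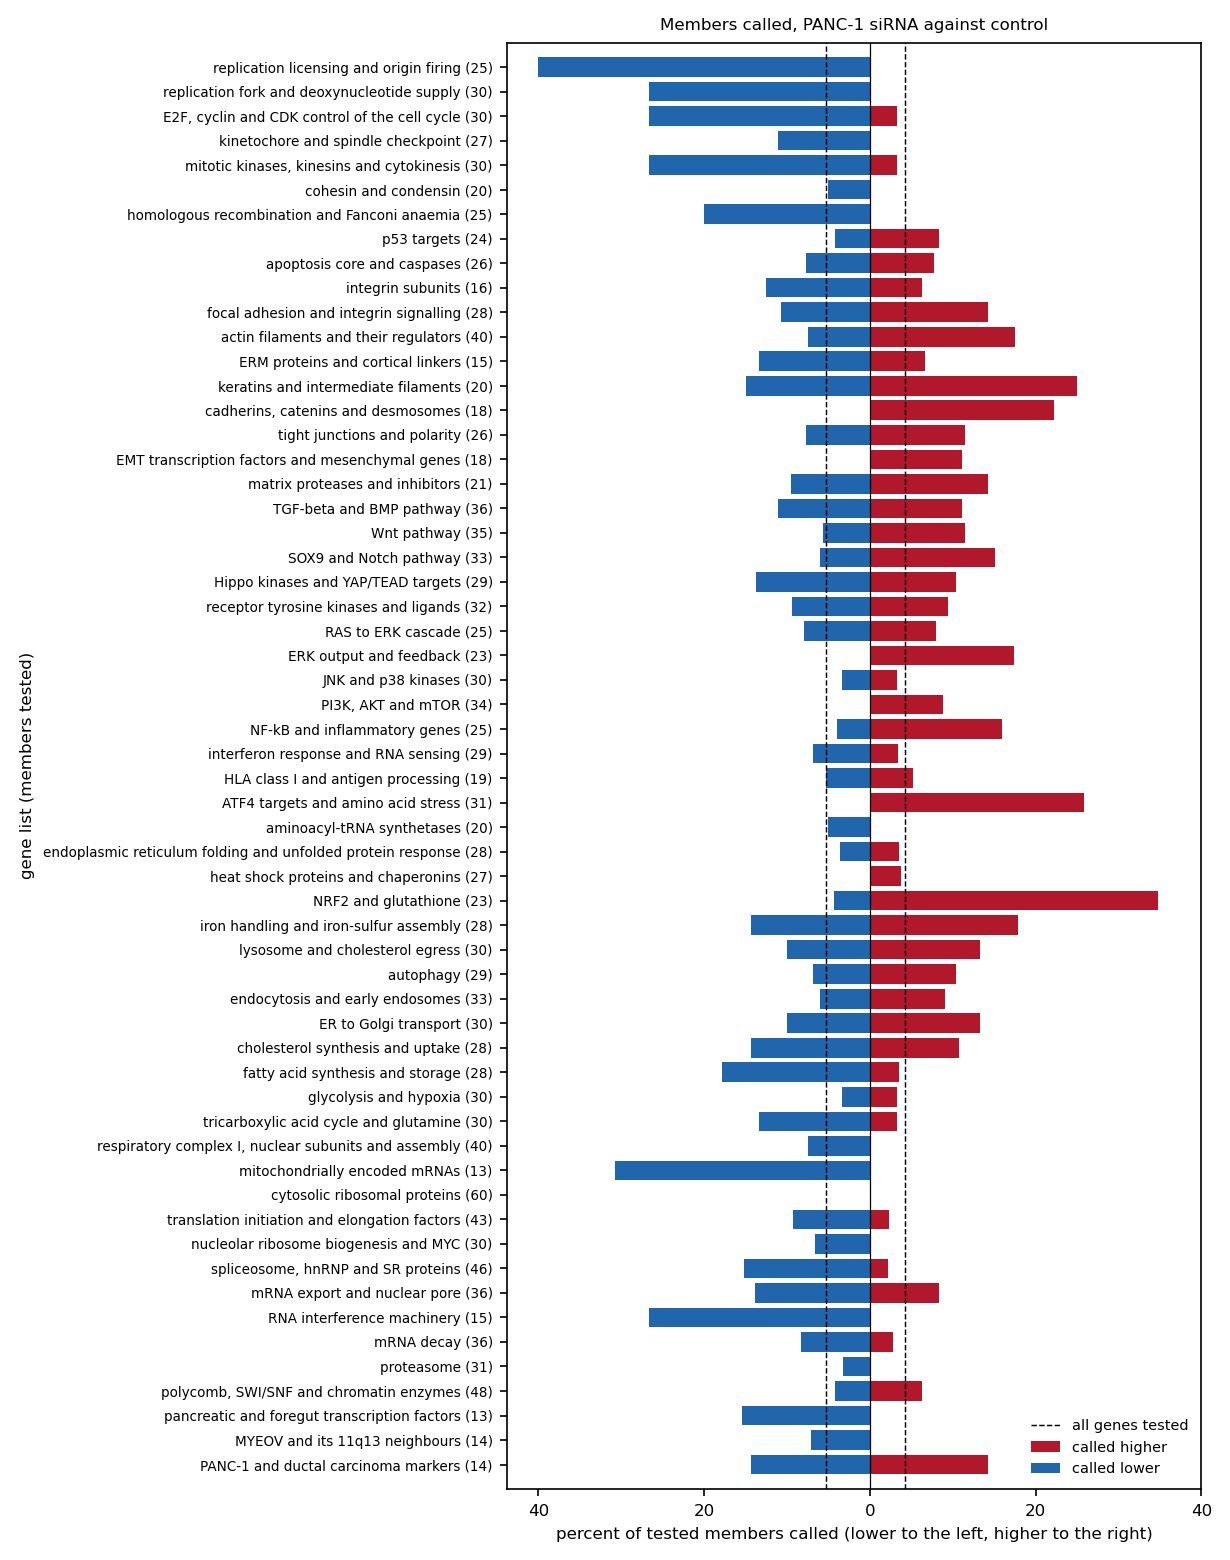
Percent of tested members called lower (blue, to the left) and higher (red, to the right) in the lists drawn, all with at least 10 tested members, with the number tested in brackets; dashed lines mark 4.30% and 5.26%, the shares over all genes. Licensing shows only blue, the ATF4 list only red, and the ribosomal protein list has no bar.

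In TGF-beta signalling, where ligands act through paired receptor kinases on SMAD proteins, 4 of 36 genes rose and 4 fell. The ligand TGFB1 rose by 0.26, a call lost in 4 of the 6 fits without 1 library. The receptor TGFBR2 fell from 82.4, 89.7 and 84.5 to 66.9, 65.3 and 65.0 CPM. SMAD3, the signal carrier below it, fell from 699, 697 and 669 to 475, 468 and 465 CPM, which is 68.2% of control (log2 fold change -0.55 ± 0.04, adjusted p 2.72e-06). Of the BMP-responsive repressors, ID1 fell by 0.32, and ID2 fell by 0.57 at under 14 CPM, a call lost in 5 of the 6 fits. SMURF1, a ubiquitin ligase of the pathway, rose by 0.32. Of the 9 carriers of the word in this list 2 fell (TGFBR2 and SMAD3, with an A after the word), 1 rose (SMURF1), and the others did not pass the test.

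Notch genes had 5 rises and 2 falls among 33, with a median of 0.13. NOTCH2, a receptor, rose from 284, 277 and 272 to 332, 354 and 313 CPM, and LFNG, the fringe transferase that modifies receptors, from 21.8, 21.3 and 26.6 to 32.0, 32.0 and 33.9 CPM. The ligand JAG1 rose by 0.28, a call lost without siRNA library 1 (adjusted p 0.0848). SOX9, the ductal transcription factor, rose from 170, 193 and 204 to 232, 223 and 241 CPM, with adjusted p 0.0105. The groups did not overlap, as in 29.2% of all genes tested. The call was lost without siRNA library 1 (adjusted p 0.0578) and without siRNA library 3 (0.0507). Only 1 tested member of this list carries the word. Wnt genes had 4 rises and 2 falls among 35, DIXDC1 being the deepest. In the Hippo list 3 of 29 rose and 4 fell, among them the kinase STK4 by 0.39 and the YAP-binding scaffold AMOT by 0.62.

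Receptor tyrosine kinases and their ligands gave 3 rises and 3 falls among 32, with a median of 0.13. TYRO3 fell from 40.3, 36.0 and 37.9 to 27.3, 24.9 and 27.6 CPM and the collagen receptor DDR1 by 0.43, and EPHA2 rose from 453, 390 and 418 to 516, 545 and 498 CPM. In the RAS to ERK cascade 2 of 25 rose and 2 fell. PTPN11, the phosphatase SHP2 that carries signals from receptors to RAS, fell by 0.38, and MAP2K1, the ERK kinase MEK1, fell from 67.2, 67.1 and 66.9 to 51.3, 51.7 and 54.8 CPM. Output and feedback genes of ERK had 4 rises and 0 falls among 23 (3 lower at an unadjusted p under 0.05, 0 in DESeq2), and 0 of the 4 held in all 6 fits without 1 library. Of 30 JNK and p38 genes 1 rose, MAP2K6, and 1 fell. The PI3K, AKT and mTOR list had 3 rises and 0 falls among 34 (1 lower at an unadjusted p under 0.05, 0 in DESeq2), with EIF4EBP2 and SESN2 holding in every such fit. Inflammatory genes of NF-kB had 4 rises and 1 fall among 25, with 0 held in all 6.

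Interferon and RNA-sensing genes had 1 rise and 2 falls among 29, with a median of -0.01. IRF7 fell from 14.8, 13.2 and 15.7 to 9.24, 10.5 and 8.51 CPM and IFITM3 from 331, 288 and 317 to 257, 254 and 260 CPM. Both are interferon-induced genes. In antigen processing 1 of 19 rose, the peptide-loading chaperone TAPBP by 0.28, and 1 fell, the trimming peptidase ERAP1 by 0.37.

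The ATF4 list holds genes of amino acid supply and stress that this transcription factor induces. Of its 31 tested genes 8 rose and 0 fell (2 lower at an unadjusted p under 0.05, 0 in DESeq2), 7 of the rises held in all 6 fits without 1 library, and the median was 0.18. Serine synthesis was represented by PHGDH, from 81.8, 69.3 and 79.8 to 98.2, 102 and 99.4 CPM, and by PSAT1, from 147, 162 and 160 to 190, 189 and 195 CPM. The amino acid carriers SLC7A1 and SLC7A5 rose by 0.31 and 0.22. STC2, a secreted glycoprotein, rose from 85.5, 83.8 and 86.5 to 113, 110 and 109 CPM, and the pseudokinase TRIB3 from 45.4, 42.8 and 45.6 to 58.2, 58.3 and 54.6 CPM. SESN2 belongs here too. SLC7A11, the cystine carrier, passed at 0.53, but its libraries overlapped (24.7, 34.1 and 23.3 against 37.8, 33.0 and 47.3 CPM) and the call was lost in 4 of the 6 fits. Aminoacyl-tRNA synthetases, also ATF4 targets, had 0 rises and 1 fall among 20 (4 higher at an unadjusted p under 0.05, 0 in DESeq2). Genes of protein folding in the endoplasmic reticulum had 1 rise and 1 fall among 28, and heat shock genes 1 rise among 27, HSPB1 by 0.33.

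NRF2 is the transcription factor of the oxidative stress response, and iron is stored in ferritin and used in iron-sulfur clusters. Of 23 NRF2 and glutathione genes 8 rose and 1 fell, and 3 of the rises held in all 6 fits without 1 library. These were HMOX1, glutathione reductase (GSR), from 33.7, 34.8 and 33.5 to 42.3, 43.6 and 43.3 CPM, and transketolase (TKT), from 284, 255 and 287 to 349, 357 and 343 CPM. PGD, another enzyme of the pentose phosphate pathway, fell by 0.31. SRXN1 had the largest fold in the list but overlapped between groups (2.82, 3.52 and 6.79 against 12.6, 5.62 and 9.17 CPM) and lost the call in 4 of the 6 fits. Of 28 iron genes 5 rose and 4 fell. The ferritin chains rose, FTH1 from 507, 440 and 496 to 568, 623 and 570 CPM and FTL from 479, 443 and 476 to 614, 645 and 572 CPM. The ferrireductase STEAP3 rose by 0.31. The 4 falls were all in iron-sulfur assembly: CIAO2A, given above, ISCA1, a mitochondrial carrier of clusters, by 0.75, CIAPIN1, an electron carrier of the cytosolic machinery, by 0.43, and MMS19, which passes clusters to DNA enzymes, by 0.41. These 4 falls held in all 6 fits, and 1 of the 4 genes carries the word.

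Lysosome genes had 4 rises and 3 falls among 30. NPC2 fell as given above, and the lysosomal lipase LIPA fell by 0.26, while PSAP, the saposin precursor, rose from 1604, 1525 and 1620 to 1811, 1875 and 1821 CPM. Autophagy genes had 3 rises and 2 falls among 29. SQSTM1, the cargo receptor p62, rose from 372, 356 and 364 to 481, 511 and 466 CPM, while ATG14 fell by 0.70 and ATG5 by 0.38. Endocytosis had 3 rises and 2 falls among 33, with EPS15 down by 0.42. In transport between the endoplasmic reticulum and the Golgi 4 of 30 rose and 3 fell. ARCN1, the delta subunit of the COPI coat, fell from 312, 336 and 318 to 200, 203 and 202 CPM.

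Cholesterol genes had 3 rises and 4 falls among 28. CYP51A1, a demethylase of sterol synthesis, fell from 11, 9.61 and 11.1 to 6.51, 6.09 and 5.45 CPM. Fatty acid genes had 1 rise and 5 falls among 28: ACLY, which makes cytosolic acetyl-CoA, rose by 0.28, and the elongase ELOVL6 and the acyl-CoA synthetase ACSL1 fell by 0.56 and 0.45. Glycolysis and hypoxia genes had 1 rise and 1 fall among 30. In the tricarboxylic acid cycle 1 of 30 rose and 4 fell. SDHC, a membrane subunit of succinate dehydrogenase, fell from 120, 125 and 123 to 86.8, 88.6 and 85.5 CPM, DLAT of pyruvate dehydrogenase fell by 0.45 and glutamate dehydrogenase (GLUD1) by 0.41, while pyruvate carboxylase (PC) rose by 0.42. Nuclear genes of respiratory complex I had 0 rises (1 at an unadjusted p under 0.05, 0 in DESeq2) and 3 falls among 40, with NDUFS1 down by 0.27. Of 13 mRNAs encoded in mitochondria 4 fell, with a median of -0.12, and 0 of these calls held in all 6 fits. Their summed level was 59282 to 61660 CPM in controls and 55026 to 57440 CPM after siRNA.

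RNA-processing factors that passed the test were mostly lower. In splicing 1 of 46 rose and 7 fell, 5 of them in all 6 fits. HNRNPA1, an abundant splicing repressor, fell from 1020, 998 and 1003 to 619, 658 and 654 CPM (log2 fold change -0.65 ± 0.04, adjusted p 1.16e-06). HNRNPF fell from 483, 473 and 443 to 313, 320 and 332 CPM and RBFOX2, which has 4 copies of the word, from 185, 182 and 187 to 121, 125 and 134 CPM. The branch-site factor SF3A3 fell by 0.31 and SRSF2 by 0.27. The 6 carriers of the word had 4 of the 7 falls. Export and nuclear pore genes had 3 rises and 5 falls among 36, with the basket protein TPR down by 0.25 beside ALYREF. Of the 4 carriers of the word in that list 3 fell, ALYREF and TPR among them, and the 32 others had 3 rises and 2 falls. Of 36 decay genes 1 rose and 3 fell, including the deadenylase subunits CNOT6 and PAN3 by 0.54 and 0.56. The 4 carriers of the word among decay genes had 2 of these falls. Of 15 genes of RNA interference, the machinery that siRNA itself uses, 4 fell and 0 rose (2 higher at an unadjusted p under 0.05, 1 in DESeq2). AGO1 fell from 116, 109 and 112 to 78.1, 79.3 and 82.8 CPM, and AGO2, the Argonaute that cleaves, fell from 136, 141 and 139 to 122, 120 and 125 CPM, a call lost in 5 of the 6 fits. Of the 7 carriers of the word in this list 3 fell, AGO1 with 3 copies and AGO2 with 2 among them, and 4 did not pass the test, TNRC6B with 3 copies (log2 fold change -0.04, adjusted p 0.735) among those.

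Translation showed a few deep falls against an even background. Of 43 initiation and elongation factors 1 rose and 4 fell. BZW1, the paralogue of BZW2, fell from 391, 446 and 408 to 230, 236 and 233 CPM (log2 fold change -0.83 ± 0.05), and EIF5, which both mimic, fell from 258, 276 and 251 to 199, 202 and 195 CPM. EIF4EBP2 was the rise. The 6 carriers of the word in this list had 3 of the 4 falls. Of 60 cytosolic ribosomal protein genes 0 passed edgeR's test, 1 had an unadjusted p under 0.05 and 0 passed in DESeq2, with a median of -0.007. Nucleolar genes had 2 falls among 30 and the proteasome 1 fall among 31. Chromatin enzymes had 3 rises and 2 falls among 48: HDAC1 rose by 0.26, and the SWI/SNF subunits ARID2 and SMARCC1 fell by 0.37 and 0.28.

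**Figure D4:**
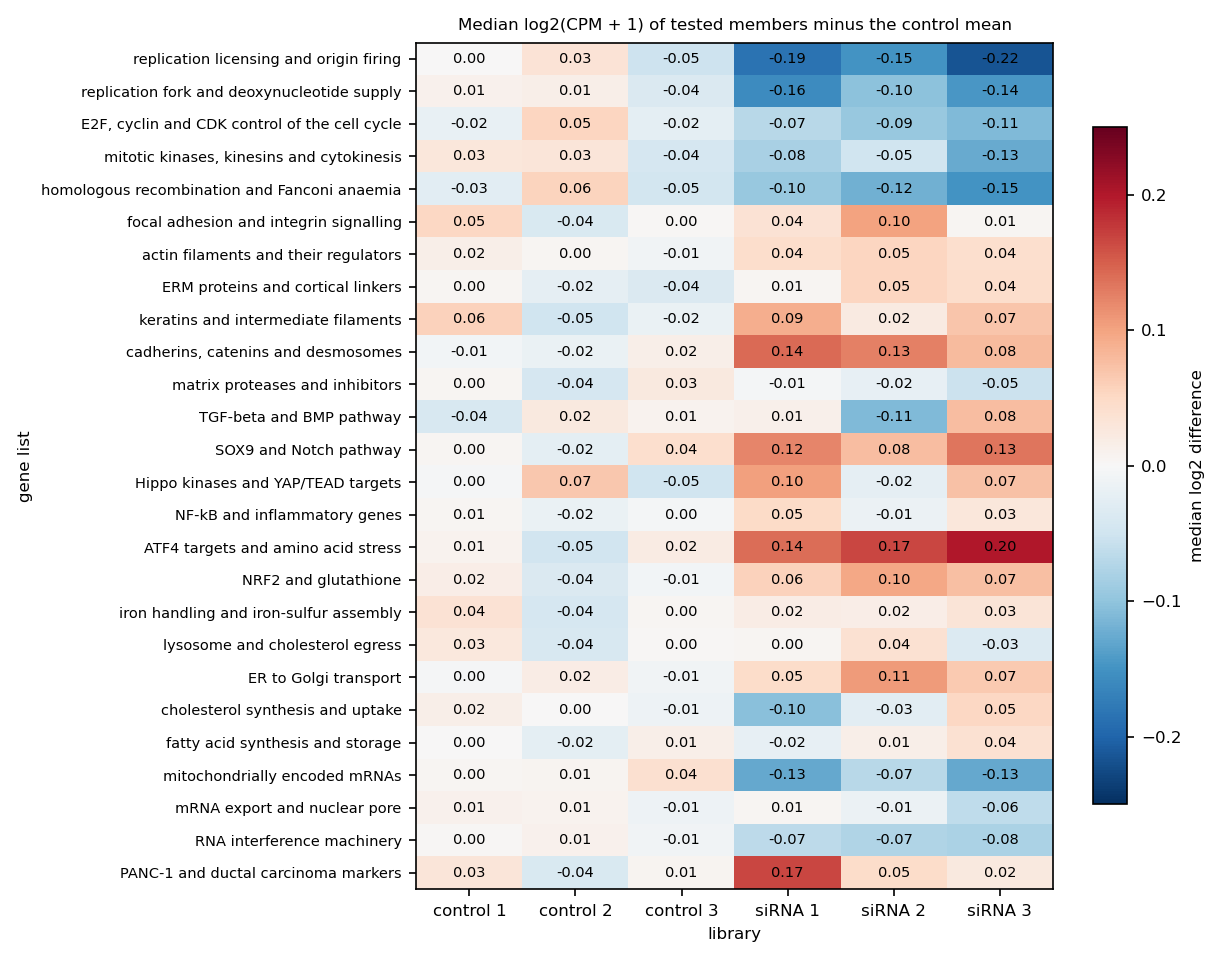
Median over tested members of log2(CPM + 1) minus the control mean (colour and printed value) for the 26 lists with at least 20% of members called and 10 or more tested, by library. All 3 siRNA libraries are below all controls in the licensing list and above them in the ATF4 list, while the TGF-beta list runs from -0.11 to 0.08 over the siRNA libraries.

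A larger share of the genes that carry CTCATGT were called lower than of the genes that do not, given here as a description with no test. Of 12217 tested genes with an annotated 3' UTR, 1590 (13.01%) hold the word on the mRNA strand. Of these carriers 20.1% were called lower and 3.52% higher, with a median log2 fold change of -0.09. Of the 10627 genes without it 3.58% were lower and 5.03% higher, with a median of 0.01. The share lower was 19.1% with 1 copy (1348 genes), 25.9% with 2 (205 genes) and 21.6% with 3 or more (37 genes). Without siRNA library 1 the share of carriers called lower was 12.5%. Carriers have longer 3' UTRs, with a median of 3132 bases against 1221, so genes were also split into 4 classes of equal size by that length. From the shortest class to the longest, 33.9%, 29.03%, 20.3% and 16.8% of carriers were lower, against 2.61%, 4.16%, 3.75% and 3.94% of the others.

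The bases around the 6-base core TCATGT sorted the falls further, a split made after seeing the data. With no core, 2.56% of 7409 genes were lower. With the core only, 4.79% of 2172 were lower, and with the core followed by an A but without the leading C, 8.22% of 1046. The whole word followed by another base gave 16.4% of 1194, and CTCATGTA gave 31.1% of 396, where 78.3% of genes were below 0. Among the 699 called falls with an annotated 3' UTR, 319 (45.6%) carry the word, against 56 of 591 rises (9.48%). The share was 62.3% of the 308 such falls that held in all 6 fits and 81.8% of the 22 such falls beyond 2-fold. The word came from an earlier look at these same data, so its larger share among deeper falls is not separate support. The programmes above differ in how many of their falls carry the word: 63 of the 153 list members that fell do, and 1 of the 10 falls in licensing does. Among genes lacking the word there were 535 rises and 380 falls.

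**Figure D5:**
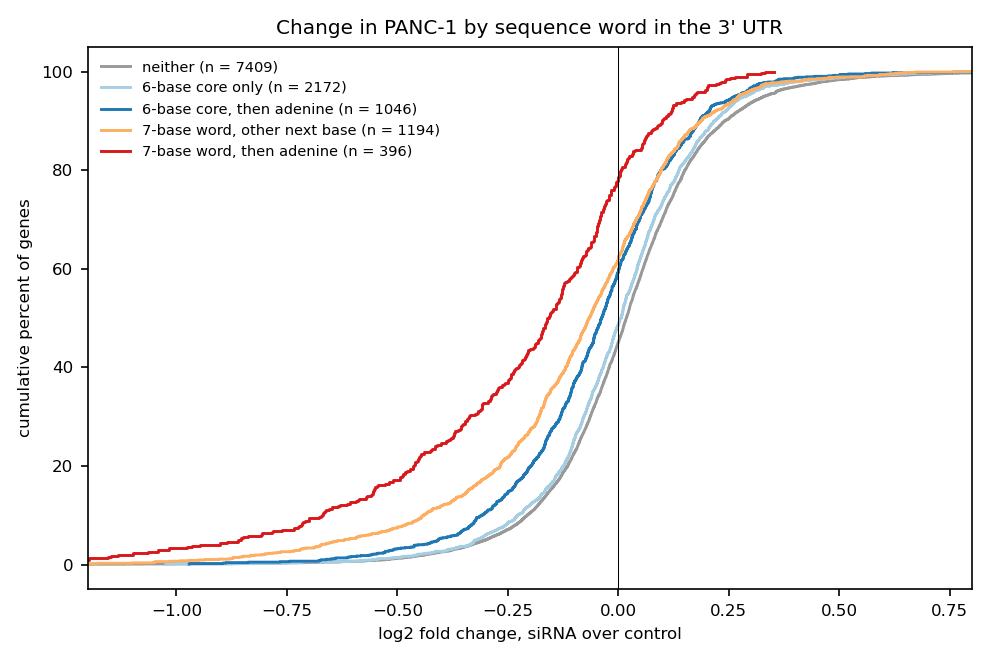
Cumulative percent of genes (vertical) by log2 fold change, siRNA over control (horizontal), for the 5 classes of 3' UTR defined in the text, with the number of genes in each. The curve of the whole word followed by adenine lies furthest to the left, with 78.3% of its 396 genes below 0.

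Markers of the line and of other cells were checked. The mean over the 6 libraries was 2205 CPM for VIM, 668 for KRT19, 1.64 for KRT7 and 7.26 for EPCAM. EPCAM did not pass the test (adjusted p 0.138). Of 14 line and ductal carcinoma markers 2 rose, SOX9 and CDH1, and 2 fell, KRT8 and KRT18. Only 3 of 12 fibroblast markers could be tested, and DCN and FAP had 0 counts. COL1A1 rose from 39.4, 32.1 and 36.8 to 44.7, 46.4 and 45.3 CPM and lost the call in 4 of the 6 fits. The summed fibroblast list was 45.9 to 54.9 CPM in controls and 62.1 to 65.1 CPM after siRNA, and its part in the other results was not tested. Only CD14 of 14 leukocyte markers could be tested, and CD3E, MS4A1, LYZ and FCGR3A had 0 counts. Of 10 endothelial markers ENG and ERG were tested, ERG did not pass at 1.76, 2.16 and 2.88 against 3.92, 4.53 and 3.06 CPM (adjusted p 0.0523), CDH5 and EMCN had 0 counts, and the summed list was 51.5 to 60.3 CPM in controls and 55.5 to 60.2 CPM after siRNA. Of 13 pancreatic and foregut transcription factors 2 fell, neither call holding in all 6 fits, and both were absent from the calls of DESeq2.

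The fall of MYEOV itself was smaller in PANC-1 than in AsPC-1. In a fit of all 11 libraries MYEOV changed by -0.88 in PANC-1 and -1.47 in AsPC-1 (log2), a difference of 0.59 ± 0.10 (SE) with an adjusted p of 0.00176 in edgeR's interaction test. Over all genes 759 of 15383 (4.93%) passed that test. Of the 157 genes named here, 28 (17.8%) passed, and 18 of those did so in all 11 fits without 1 library. The named genes were chosen for their change in PANC-1, so their share is not set against that of all genes. EMP1 and MSN fell in both lines and less in PANC-1, at -1.43 against -1.995 for EMP1 and -0.63 against -1.90 for MSN. KRT8 and KRT18 fell in PANC-1 while AsPC-1 had 0.01 and 0.19. Of the named genes PLAU differed most, with 0.29 in PANC-1 and 1.98 in AsPC-1.

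Some counts cannot be assigned to 1 gene with certainty. No source used here says whether reads were counted by strand, and 91 of the 157 named genes overlap a gene on the other strand, MYEOV, SOX9, NPC2, ALYREF, ITGB1 and SMAD3 among them. KRT8, KRT18, HNRNPA1, FTH1, FTL and ribosomal protein genes have processed copies elsewhere in the genome that can share reads. CPM is not divided by gene length, so it compares a gene between libraries, and the levels of different genes are not on 1 scale.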

How the data were processed

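Each library's table, as deposited by the authors, gives raw counts per gene in whole numbers. Libraries were poly(A) RNA read as pairs of 150 bases, per the labels' protocols, and the submitters' processing notes name HISAT2, HTSeq and hg19, without versions. All 58735 identifiers occur in GENCODE 29 (Ensembl 94, GRCh38), which gave names, positions and 3' UTRs; no coordinate came from the deposited tables.

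Groups follow the sample titles. The 6 PANC-1 libraries were fitted alone with edgeR 4.0.16 in R 4.3.3 (at least 1 CPM, before TMM, in at least 3 libraries, TMM scaling, quasi-likelihood test by glmQLFit and glmQLFTest, two-sided). P-values were adjusted over 14243 genes by Benjamini-Hochberg, with a threshold of 0.05. CPM values printed were computed here with TMM factors, apart from those of the line markers VIM, KRT19, KRT7 and EPCAM as means and of summed lists. The difference between lines was an interaction term over 11 libraries. Replicate numbers entered no main fit, because the labels do not say that they pair libraries.

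The genes, 63 lists (1765 symbols, all matched) and the 7-base word were chosen with earlier results of these data known. Lists were counted, not tested. A few genes and 1 list are not reported here by name. Named genes are MYEOV, SOX9, the 15 largest rises and 15 largest falls and up to 3 members of each list among genes called in all 6 fits without 1 library (the rises and falls also without overlap between groups and at mean log2 CPM 3 or above). Others, such as the MCM genes, the ferritins, TRIB3, PSAT1, the SLC7 carriers, ANLN, CYCS, PLAU and CDH1, were named after their values were seen. Word copies were counted in Python 3.11.15 with pandas 2.3.3, and matplotlib 3.10.9 drew the figures. In simulated data with 200 changed genes the PANC-1 fit recovered 46.3%, 100% and 100% of changes of 0.3, 0.6 and 1.2 (log2) among 14243 genes, with 7 false calls. The test between lines recovered 79% and 100% of changes of 0.6 and 1.2 among 15383 genes, with 10 false calls. In both simulations the changed genes were drawn only from those above a mean log2 CPM of 3. Alternatives were RLE and upper-quartile scaling, other filters, DESeq2 1.42.0, 1 fit over all groups, a replicate block and leaving out each library.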

Additional observations from a re-analysis of the deposited data

Results flagged for a closer look

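For 28 of the 157 named genes the response to MYEOV siRNA differed between PANC-1 and AsPC-1, by an edgeR interaction test over 11 libraries adjusted over 15383 genes. Differences are PANC-1 minus AsPC-1 on the log2 scale. The pattern rests on 2 AsPC-1 controls, and without AsPC-1 control 1 the count was 19. The depth of the MYEOV fall also differed between the lines (0.59), and the part this has in the other differences was not tested.

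Falls in both lines that were smaller in PANC-1 gave positive differences for EMP1 (0.56), MSN (1.27), ITGB1 (0.44), FAM107B (0.38), CDCA8 (0.36), CDKN1A (0.53), AGO1 (0.43) and ARCN1 (0.22). Rises in both lines that were smaller in PANC-1 gave negative differences for PLAU (-1.69), TMEM87B (-0.56), ACLY (-0.40), EIF4EBP2 (-0.39), FTL (-0.35) and TGFB1 (-0.33). Rises in PANC-1 set against AsPC-1 values near or below 0 gave positive differences for ESPN (1.14), CCDC9B (0.78), PLEC (0.46), SLC7A5 (0.46), TIMP2 (0.40), MYH9 (0.37), PSAT1 (0.34) and TAPBP (0.28). In AsPC-1 SLC7A5 and PLEC were called lower by edgeR's test (adjusted p 2.98e-04 and 0.0207), and the others did not pass. Falls in PANC-1 set against AsPC-1 values near or above 0 gave negative differences for ID2 (-1.40), KRT18 (-0.52), KRT8 (-0.42), LIPA (-0.41) and UNG (-0.37). In AsPC-1 KRT8 and UNG did not pass edgeR's test (adjusted p 0.976 and 0.372), whereas ID2, KRT18 and LIPA were called higher. The 18 that passed in all 11 fits without 1 library were MYEOV, ESPN, CCDC9B, EIF4EBP2, EMP1, ITGB1, MYH9, MSN, KRT8, KRT18, TIMP2, LIPA, ACLY, FTL, SLC7A5, ID2, PLEC and PLAU.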

How the results depend on the processing

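The 1362 called genes became 1370 with RLE scaling, 1378 with upper-quartile scaling, 1356 with edgeR's own filter, 1613 without a filter, 1428 at 5 CPM, 1142 with DESeq2 and 2068 in 1 fit over all groups. Leaving out single libraries gave 542 to 1706 called genes, 122 to 306 called list members (270 in the full fit, 122 without siRNA library 1 and 173 without siRNA library 3), 12.5% to 19.9% of word carriers lower (20.1% in the full fit) and 19 to 39 named genes that differ between lines (28 in the full fit). The share of carriers lower was 23.5% at 5 CPM, 17.7% with DESeq2 and 24.0% in the fit over all groups. MYEOV kept its call throughout, between -0.93 and -0.82 without single libraries.

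Same-numbered libraries did not deviate together (correlations -0.01, -0.40 and -0.10). Control 1 with siRNA 2 and control 2 with siRNA 3 each gave 0.38, and control 1 with siRNA 3 gave -0.38. These values cannot settle whether cultures were paired by number, which the labels do not say. With the replicate number as a block there were 619 called genes, 131 called list members, 13.2% of carriers lower, 18 named genes that differ between lines, and MYEOV at -0.88.

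No named gene changed sign to a call in the other direction. RLE scaling and edgeR's own filter changed 0 of their calls, and DESeq2 lost 5. The block lost 21, CHAF1A, LIPA, PAN3 and FTH1 among them, and leaving out siRNA library 1 lost 21. Many named genes were chosen for calls that held in all 6 fits without 1 library, so those genes could not lose a call there. Over all genes, leaving out siRNA library 1 cut the calls from 1362 to 542. ERG passed with upper-quartile scaling, without a filter and in 1 fit over all groups. CDC6 lost its call with upper-quartile scaling and DESeq2, and SRXN1, SLC7A11 and CDH1 lost theirs with DESeq2. Depth limits the low genes, since 1.33% of those below a mean log2 CPM of 2 were called.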
